A study of Homo sapiens with 6 samples.

Results

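The mRNAs of 8 glycolytic enzymes were examined in an enhanced cross-linking and immunoprecipitation (eCLIP) experiment with FLAG-Angel1. A cluster, which is a stretch of the genome where reads pile up in an immunoprecipitate (IP), was taken as a member when it overlapped the interval of GAPDH, PKM, ENO1, LDHA, LDHB, ALDOA, PGAM1 or TPI1 by at least 1 nt on the strand of the gene. This rule found 298 of 205520 clusters, or 0.145%, with 25 of 5717 from the control IP, 124 of 102843 from FLAG-Angel1 replicate 1 and 149 of 96960 from FLAG-Angel1 replicate 2. The intervals, on GRCh37, were chr12:6643585-6647537 (+) for GAPDH, chr15:72491370-72524163 (-) for PKM, chr1:8921059-8939151 (-) for ENO1, chr11:18415936-18429765 (+) for LDHA, chr12:21788275-21810728 (-) for LDHB, chr16:30064411-30081741 (+) for ALDOA, chr10:99186031-99193197 (+) for PGAM1 and chr12:6976584-6980110 (+) for TPI1. Which clusters fall in exons, introns or untranslated regions was not analysed here, and positions below are counted in nt from the 5′ end of each interval, with the first nucleotide as 1.

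The study calls the biochemical activity of Angel1, a homolog of the CCR4 deadenylase, poorly defined. It cites earlier work that found 2′,3′ cyclic phosphatase activity, weaker than that of a related protein. The study identifies Angel1 as a factor in the decay of mRNAs without stop codons, and the eCLIP experiment asked which RNAs Angel1 contacts. The cells were Flp-In T-REx HEK293, a human embryonic kidney line with a single site for integrating a construct. FLAG-Angel1 was driven by a tetracycline-regulated promoter, and all libraries came from cells given 5 ng/mL tetracycline for 24 h and then 400 mJ/cm2 of UV light at 254 nm, which cross-links RNA to the protein that touches it. There are 6 libraries, namely an IP and a size-matched input (the same size range of RNA without the immunoprecipitation) for 2 FLAG-Angel1 replicates and for 1 control. The labels call the control FLAG-only and also give it the genotype FLAG-Angel1, whereas the paper describes parental cells with no FLAG-tagged fusion protein. The paper also mentions a sample kept from UV light, which no label marks. Nothing in the labels says whether the replicates came from separate cultures, and the inputs enter only through the ratio of IP to input that the authors computed for each cluster.

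Glycolysis splits glucose into pyruvate in the cytosol and yields ATP and NADH. ALDOA (aldolase A) cleaves fructose 1,6-bisphosphate into a pair of triose phosphates, which TPI1 (triosephosphate isomerase) interconverts. GAPDH (glyceraldehyde-3-phosphate dehydrogenase) oxidizes glyceraldehyde 3-phosphate, PGAM1 (phosphoglycerate mutase) moves the phosphate of 3-phosphoglycerate, ENO1 (enolase) forms phosphoenolpyruvate and PKM (pyruvate kinase of muscle and of proliferating cells) uses it to make ATP. LDHA and LDHB, the subunits of lactate dehydrogenase, interconvert pyruvate and lactate. These mRNAs are abundant and constantly translated in proliferating cells.

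All 8 loci carried clusters in both FLAG-Angel1 replicates, and 5 of the 8 did so in the control. No cluster in any of the 3 IPs lay on the opposite strand of a locus. In replicate 2 nearly every cluster over these genes was enriched over its input, in replicate 1 about as many were enriched as were not, and the median fold was lower in replicate 1 for every gene.

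**Figure D1:**
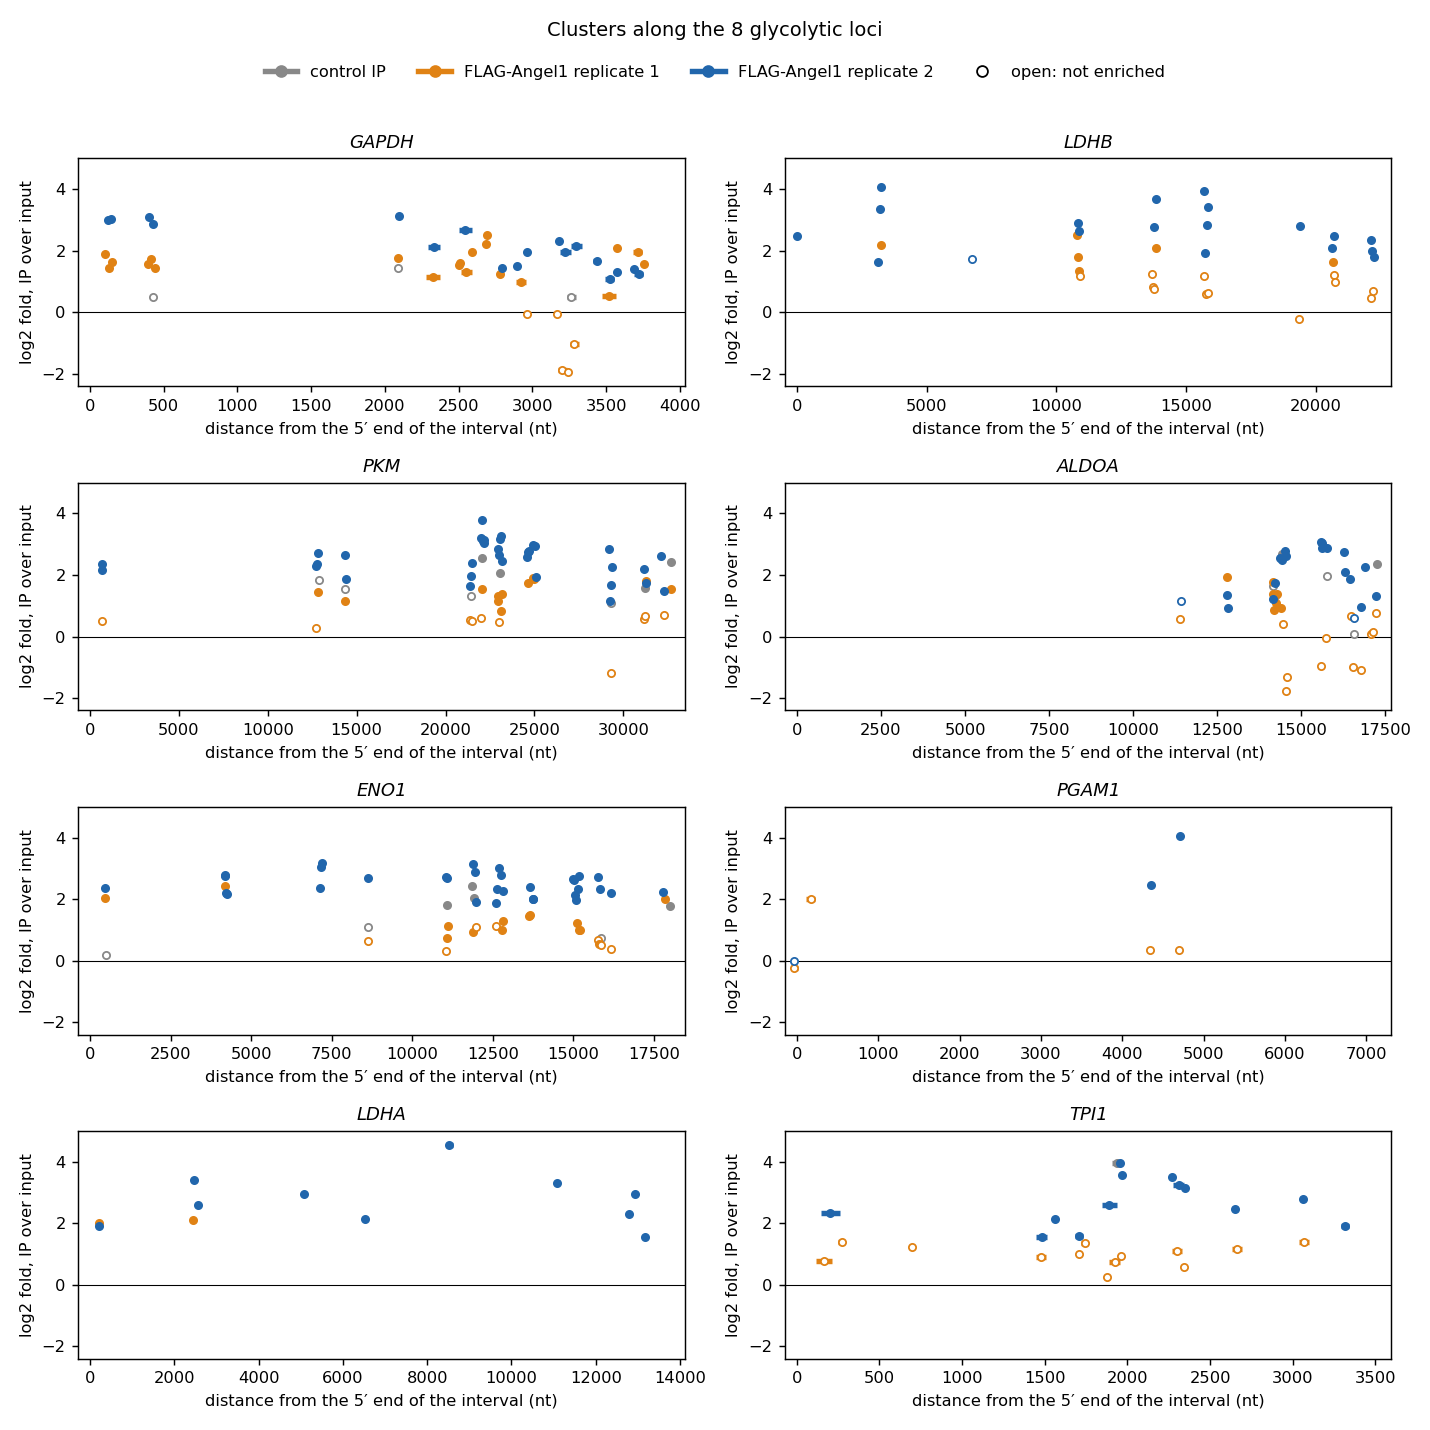
Log2 fold of IP over input (vertical axis) of every cluster against its distance from the 5′ end of the interval (horizontal axis, nt), 1 panel for each gene, with the control in grey, FLAG-Angel1 replicate 1 in orange and replicate 2 in blue. Bars give the extent of a cluster, filled points were enriched and open points were not; all but 1 of the negative folds are in replicate 1, most of them in GAPDH and ALDOA.

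Enriched here means a log2 fold above 0 and an authors' P, for IP against input, that passed the threshold of 0.05. Over the 8 loci, 61 of 124 clusters in replicate 1 (49.2%, Wilson 95% interval 40.6 to 57.9%) and 145 of 149 in replicate 2 (97.3%, 93.3 to 99%) were enriched. Among all clusters of the same library, the same rule called 11.7% in replicate 1 and 40.7% in replicate 2. At the stricter threshold of 0.001, 30 clusters passed in replicate 1 and 127 in replicate 2, against 4.22% and 17.0% of all clusters. In the control, 12 of 25 clusters over the loci were enriched (48.0%, 30.03 to 66.5%), with 91.8% of all control clusters called. The intervals cover counting error only, clusters of 1 library are not replicates, and no test was made between libraries because the control has 1 library.

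How many reads a cluster held bears on whether it could pass. The deposited folds fall on exact ratios of whole reads, and with the authors' P they gave the IP and input reads of nearly every cluster with a scored P. Taking the lowest reads that fit wherever the fold was 0 or below or P was not scored, the median cluster over the loci held 93 IP and 10.5 input reads in replicate 1 and 67 IP and 15 input reads in replicate 2, where the median of all clusters was 11 and 1, and 8 and 2. Among clusters with a log2 fold above 0, the shares enriched in replicate 1 over the loci and in the whole library were close at the same number of input reads from 5 up, at 39.5 against 39.1% for 5 to 9 input reads, 70.0 against 65.5% for 10 to 19 and 78.6 against 83.5% for 20 to 49. In replicate 2 the loci stood higher in each of these classes, with all 24 clusters enriched against 62.7%, then 98.0 against 81.0% and 98.1 against 92.9%. The share for 2 to 4 input reads was 46.7 against 19.7% over 15 clusters in replicate 1, and in replicate 2 all 16 were enriched against 39.1%. With the clusters at or below 0 counted too, at the lowest reads that fit, replicate 1 had 38.5 against 32.3%, 63.6 against 55.8% and 64.7 against 68.9% in the 3 classes from 5 reads up, where the class of 20 to 49 gained 3 ALDOA clusters and held 17. Replicate 2 then had 96% against 59.1%, 98.0 against 77.2% and 98.1 against 82.8%. In the control, 16 of the 25 clusters over the loci had 20 to 49 input reads, and 8 of these (50%) were enriched beside 48.4% of all control clusters of that class with a fold above 0, with median log2 folds of 1.45 and 1.47. The place of the control clusters of these genes below their library thus did not hold at that number of input reads, and 2 of the 6 with 10 to 19 input reads were enriched, beside 75.1%.

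**Figure D2:**
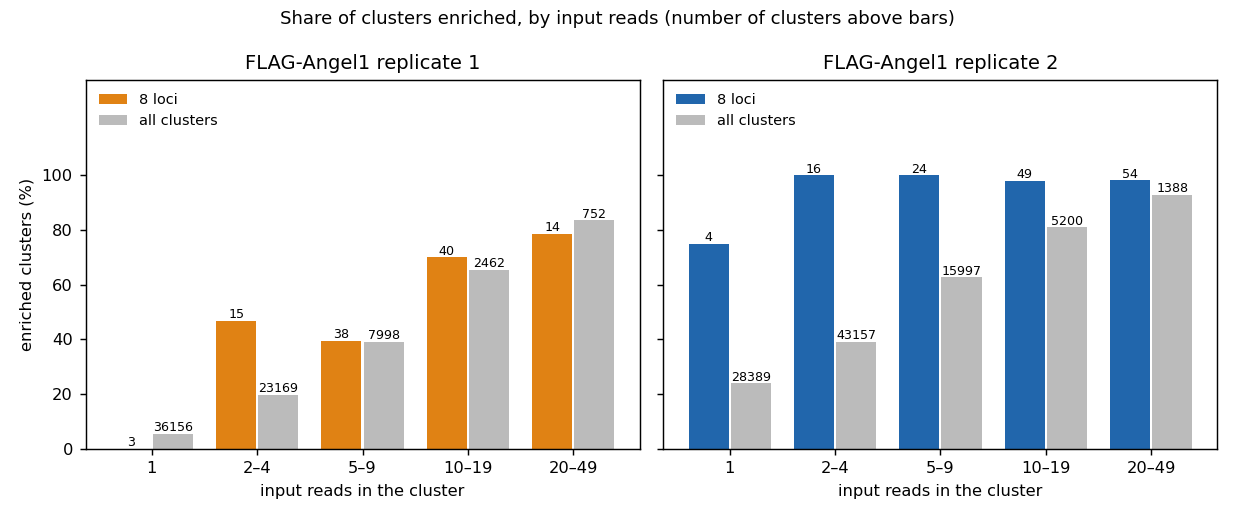
Share of clusters enriched (vertical axis, %) by the inferred input reads of the cluster (horizontal axis), for clusters with a log2 fold above 0 over the 8 loci (colored) and over the whole library (grey), with the number of clusters above each bar. In replicate 1 the paired bars are near each other from 5 input reads on, and in replicate 2 the colored bar is the higher in every class.

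The median log2 fold over the 8 loci was 1.08 for replicate 1 (0.57 over all clusters of the library), 2.47 for replicate 2 (1.73 over all) and 1.63 for the control (5.20 over all). In replicate 1 the order of the gene medians was LDHA (2.05), GAPDH (1.53), LDHB (1.19), ENO1 (0.99), PKM (0.99), TPI1 (0.99), ALDOA (0.57) and PGAM1 (0.35). Of the 7 neighboring pairs in that order, 6 had quartile ranges that overlapped, and the exception, LDHA over GAPDH, rests on the 2 clusters of LDHA. In replicate 2 the order was LDHA (2.78), LDHB (2.64), PKM (2.60), TPI1 (2.59), PGAM1 (2.47), ENO1 (2.38), ALDOA (2.17) and GAPDH (2.04), with all 7 neighbors overlapping. Genes further apart in the order could have separate quartiles, as in replicate 1 for GAPDH (0.98 to 1.78) above PGAM1 (0.20 to 0.77). The values of PGAM1 there rest on 4 clusters of 1 input read each, and in replicate 2 the median of PGAM1 was above that of GAPDH. Between the replicates the medians of the 8 genes had a Pearson r of 0.29 and a Spearman rho of 0.31. The median of each of the 8 genes was higher in replicate 2 than in replicate 1, by 0.51 (GAPDH) to 2.12 (PGAM1).

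**Figure D3:**
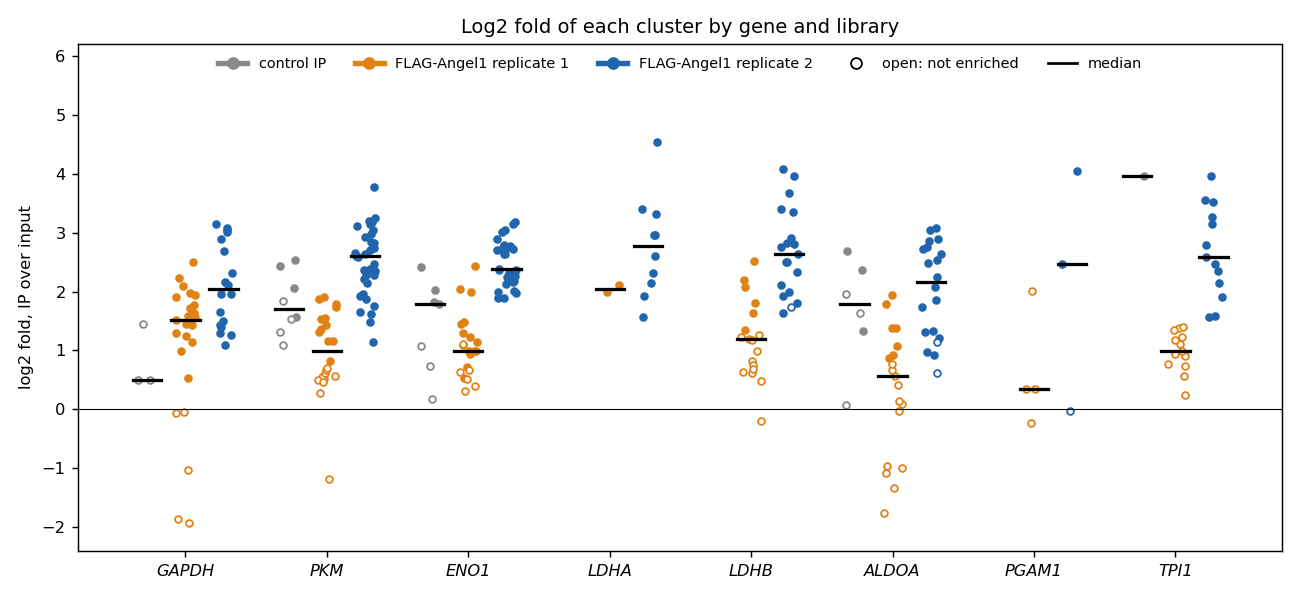
Log2 fold of IP over input (vertical axis) of each cluster by gene and library, with a bar at the median. Filled points were enriched over input. The median of replicate 2 lies above that of replicate 1 at each gene, while single clusters can overlap, and LDHA, LDHB and PGAM1 have no control cluster.

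ALDOA, which acts first among the 8 enzymes, had 6 control clusters (3 enriched), 19 clusters in replicate 1 (7 enriched) and 20 in replicate 2 (18 enriched). Its folds ranged from -1.76 to 1.94 in replicate 1 and from 0.61 to 3.08 in replicate 2, so that the replicates overlapped. All clusters lay in the 3′ part of the interval, from position 11392 on. TPI1 had 1 cluster in the control and 13 in each replicate, and it split most sharply by the threshold, with none enriched in replicate 1 and all 13 in replicate 2. Its folds in replicate 1 ran from 0.25 to 1.39, all above 0, and in replicate 2 from 1.56 to 3.95, so that the ranges did not meet. The TPI1 clusters in replicate 1 held 22 to 56 IP reads over a median of 5 input reads. With 5 input reads the threshold of 0.05 required 61 IP reads in that library but 14 in replicate 2. As log2 folds these were 1.37 and 1.63, so the fold required was the lower in replicate 1. None of the 12 overlapping pairs of TPI1 clusters had 95% intervals that were apart.

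GAPDH had 3 control clusters, none enriched, 25 clusters in replicate 1 (20 enriched) and 18 in replicate 2 (all enriched), and the clusters of replicate 1 covered 20.3% of its short interval. Its folds ranged from -1.93 to 2.50 in replicate 1 and from 1.09 to 3.14 in replicate 2. PGAM1 was the locus with the fewest reads, with 4 clusters in replicate 1 of at most 19 IP reads over 1 input read, none of them enriched, and 3 in replicate 2, of which 2 were enriched at log2 folds of 2.47 and 4.05 on 15 IP reads each. A single input read can also be a minimum set by the pipeline, so the fold of 4.05 is uncertain. The most upstream cluster of PGAM1 began outside the interval in both replicates, with folds of -0.23 and -0.03.

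ENO1 had 7 control clusters (4 enriched), 21 clusters in replicate 1 (14 enriched) and 32 in replicate 2 (all enriched). PKM had 8 control clusters (4 enriched), 22 clusters in replicate 1 (12 enriched) and 34 in replicate 2 (all enriched). The ENO1 folds of the control were 0.17 to 2.42, those of replicate 1 were 0.32 to 2.43 and those of replicate 2 were 1.89 to 3.18. For PKM they were 1.10 to 2.54, -1.17 to 1.92 and 1.14 to 3.77, respectively. The clusters of both genes reached from near the 5′ end to near the 3′ end of the interval, with long stretches between that held none. In both the folds of the control overlapped those of each replicate.

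The lactate dehydrogenase genes had no control cluster. LDHB had 18 clusters in replicate 1 (6 enriched, log2 folds -0.20 to 2.52) and 19 in replicate 2 (18 enriched, 1.63 to 4.08), and its clusters held 12.7 to 29.1 and 1.18 to 37.3 IP reads per 1000000 reads of the library (RPM). LDHA differed in kind between the replicates, with 2 strong clusters in replicate 1 and 10 in replicate 2, all of them enriched. The clusters of replicate 1, at chr11:18416106-18416183 and chr11:18418366-18418396, held 470 and 283 IP reads, or 138 and 83.3 RPM. The clusters of replicate 2 at the same places held 55 and 38 IP reads, or 21.6 and 14.9 RPM, while their log2 folds were 1.93 and 3.39 beside 2.00 and 2.10. The remaining 8 LDHA clusters of replicate 2 had 3.54 to 8.26 IP RPM, on 9 to 21 IP reads and 1 to 6 input reads. All 8 lay below 14.3 RPM, which is what 3 reads, the fewest in any control cluster over these loci, amount to in the small control library. Over all 8 loci, 24 of 124 clusters of replicate 1 and 38 of 149 of replicate 2 lay below that level at the lowest reads that fit. For the clusters below it, the absence of a control cluster was not a detectable difference at this depth. Over all clusters of the libraries the median IP RPM was 3.24 in replicate 1 and 3.15 in replicate 2, so most clusters of each library were also below it.

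The folds of the replicates were next compared where their clusters overlapped. Each cluster of replicate 1 was paired with the cluster of replicate 2 that overlapped it most. A cluster of replicate 2 could thus enter several pairs, which are not independent. Of 115 such pairs over the 8 loci, 107 had the higher log2 fold in replicate 2 (93.0%, beside 81.3% of the 54100 pairs of the whole lists), the difference having a median of 1.41 and, between pairs, an SD of 1.00. Both clusters were enriched in 57 pairs, and in 55 the cluster of replicate 2 alone was. For the 95% intervals, which cover counting error only, clusters at or below 0 were taken at the lowest reads that fit. More reads there would narrow the intervals, so counts of pairs apart are minimum counts. The intervals of the 2 folds did not meet in 36 pairs (31.3%, beside 2.71% of all pairs). Restricted to pairs with at least 10 input reads in replicate 1, where intervals are narrow, this share was 53.8% of 65 pairs beside 27.5% of 3823. By gene, the intervals were apart in 11 of 21 ENO1 pairs, 9 of 21 PKM pairs, 7 of 17 ALDOA pairs, 6 of 22 GAPDH pairs and 3 of 17 LDHB pairs.

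**Figure D4:**
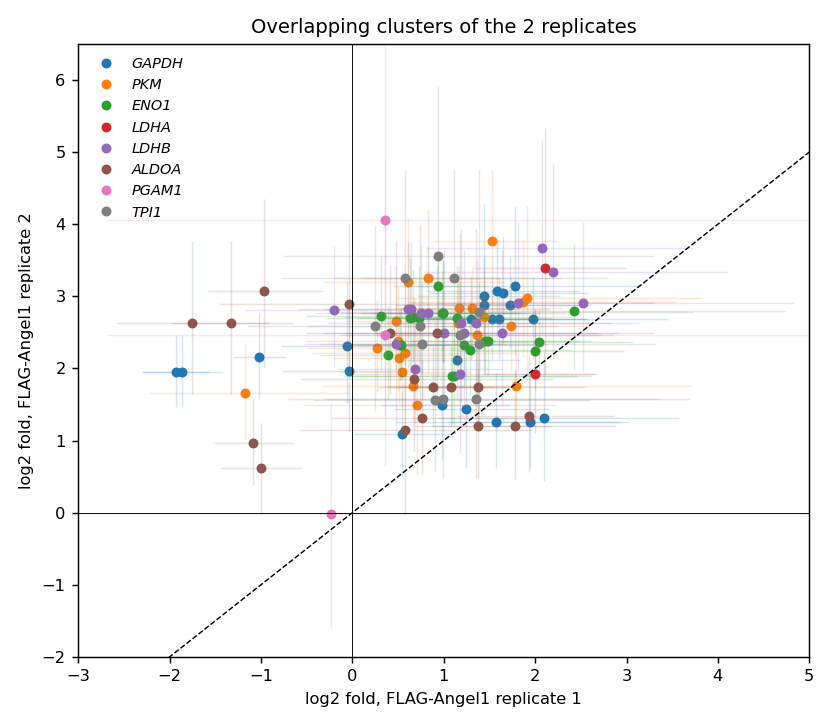
Log2 fold in FLAG-Angel1 replicate 2 (vertical axis) against replicate 1 (horizontal axis) for the 115 pairs of overlapping clusters, colored by gene, with 95% intervals for counting error. The dashed line marks equal folds; 107 points lie above it, and the points at the left with negative folds in replicate 1 belong mostly to GAPDH and ALDOA.

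The inputs differed more than the IPs at these pairs. Over the 99 pairs whose reads were determined in both replicates, the input RPM was lower in replicate 2 in 90, with a median log2 difference of -1.26 (replicate 2 minus replicate 1). The IP differed by a median of 0.22 on the same scale and was the lower in replicate 2 in 41 of the 99. Over all such pairs of the lists the medians were -1.22 for the input and -0.50 for the IP. Among the genes, the median IP difference ran from -2.58 in LDHA (2 pairs) and -0.84 in ALDOA to 0.66 in ENO1, where 20 of 21 pairs were higher in replicate 2. The input difference was negative in every gene that had such pairs, from -3.19 in LDHA to -0.93 in ENO1. Abutting clusters can share reads and overlapping clusters differ in width, so these values describe pairs and are not sums over a gene.

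In 8 of the 115 pairs the interval of replicate 1 lay wholly below 0 and that of replicate 2 wholly above 0 (6.96%, beside 0.264% of all pairs), and the reverse did not occur over these loci. With at least 10 input reads in replicate 1 the share was 12.3%, beside 3.32%. Negative folds again stood at the lowest reads that fit, so counts of pairs with opposite signs are minimum counts. The 8 pairs fell in GAPDH, ALDOA and PKM. In GAPDH they formed 1 stretch of 3 abutting clusters at chr12:6646755-6646817, chr12:6646818-6646835 and chr12:6646836-6646897, with log2 folds of -1.86, -1.93 and -1.02 in replicate 1. The 2 clusters of replicate 2 there had folds of 1.95 and 2.16, and the control cluster, on 4 IP and 44 input reads, had 0.49 (-1.44 to 1.95). In replicate 1 the input held at least 108, 161 and 197 RPM in these clusters, whereas the input of replicate 2 held 16.4 and 11.4 and that of the control 13.5. The IP held at least 29.7, 42.1 and 96.9 RPM in replicate 1 and 63.3 and 50.7 in replicate 2. In this stretch of GAPDH the replicates thus differed more in the input than in the IP, and what raised the input of replicate 1 was not tested.

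**Figure D5:**
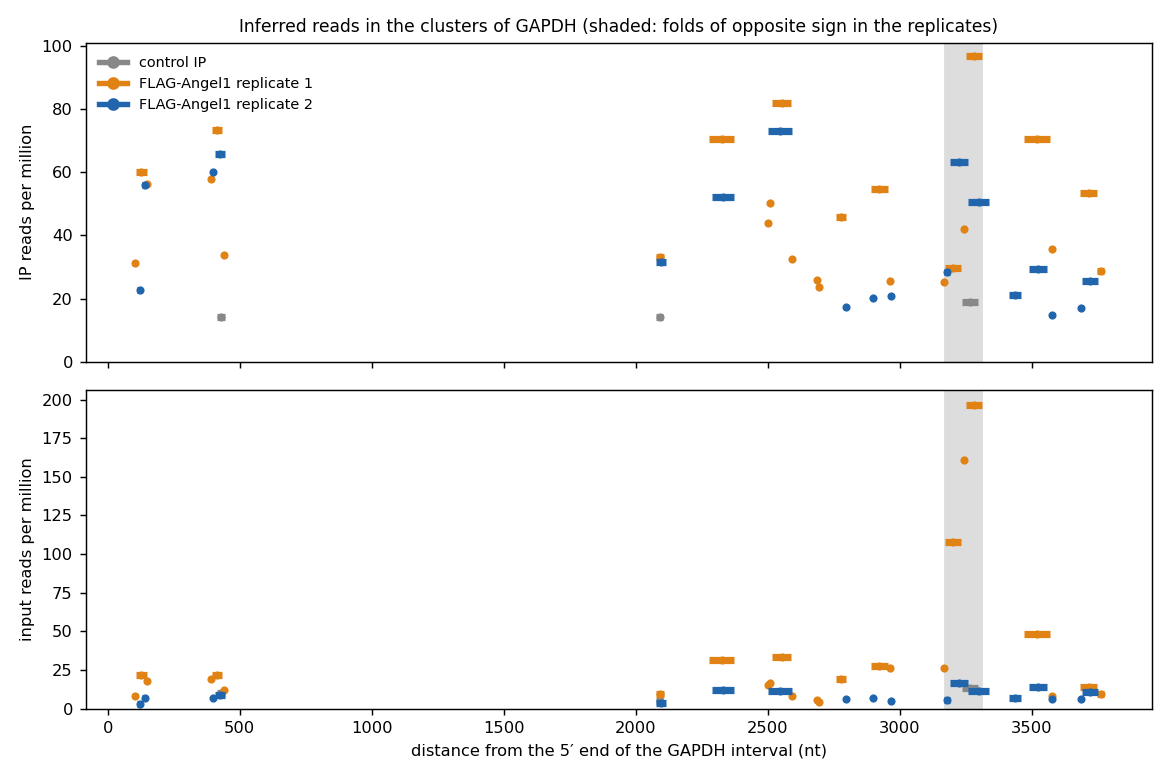
Inferred IP (upper) and input (lower) RPM in each GAPDH cluster (vertical axes) against the distance from the 5′ end of the interval (horizontal axis, nt), by library. The shaded stretch holds the clusters with folds of opposite sign, where the input of replicate 1 reached at least 197 and that of the other libraries stayed at or below 16.4; where a fold was 0 or below, the lowest reads that fit are drawn.

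The ALDOA pairs with opposite signs were at positions 14544 to 14568 and 14569 to 14572 (-1.76 and -1.33 in replicate 1, both against 1 cluster of replicate 2 at 2.63), 15557 to 15611 (-0.97 and 3.08) and 16741 to 16829 (-1.09 and 0.97). The PKM pair was at 29268 to 29365, where replicate 1 had -1.17, replicate 2 had 1.66 and the control had 1.10. In all of these pairs the input of replicate 1 was higher, in RPM, than that of replicate 2. In the last ALDOA pair the input was at least 90.0 RPM beside 13.9, and the IP at least 42.4 beside 27.1. In the PKM pair the input was at least 16.6 RPM beside 9.96, and the IP at the same lowest reads was 7.36 beside 31.5. Only the ratio of the replicate 1 reads is known there. Whether the input or the IP differed more in the PKM pair thus cannot be told. A further ALDOA pair, at 16503 to 16585 in replicate 1 and 16523 to 16585 in replicate 2, had -1.0 and 0.61, where the interval of the latter reached 0 (-0.01 to 1.25). Folds of opposite sign with intervals clear of 0 thus stood at 3 separate places in ALDOA, at 1 in GAPDH and at 1 in PKM.

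A reproducible peak is a region where a cluster of replicate 1 and one of replicate 2, each with a positive log2 fold and past a P of 0.001, shared at least 1 nt, and it spans the clusters so joined. The 8 loci held 20 of 2243 such peaks (0.892%), with 5 in GAPDH, 5 in ENO1, 4 in PKM and 2 each in LDHA, LDHB and ALDOA. PGAM1 and TPI1 had none. They took up 26 clusters of replicate 1 and 33 of replicate 2, or 21% and 22.1% of those over the loci, beside 3.2 and 3.54% of all clusters. The median width was 91 nt (123 nt for all reproducible peaks). Of the 20, 3 lay over an enriched control cluster (15%, beside 17.2% of all such peaks), 1 each in ENO1, PKM and ALDOA, and 6 over any control cluster.

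For each gene with a reproducible peak, the peak with the largest lower fold of the 2 replicates is given, with the highest fold of a cluster in it. In LDHB the peak at chr12:21799879-21799950 had log2 folds of 2.52 (0.92 to 4.83, on 81 IP and 3 input reads) in replicate 1 and 2.91 (1.94 to 4.03) in replicate 2. In ENO1 it was the narrow peak at chr1:8934966-8934976, 11 nt wide, with 2.43 (0.83 to 4.74, on 76 and 3 reads) and 2.80 (1.97 to 3.73). In LDHA, chr11:18418365-18418430 had 2.10 (1.33 to 2.99) and 3.39 (1.92 to 5.34). These 3 peaks had no control cluster over them, and in each the intervals of the replicates overlapped.

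In GAPDH, chr12:6646086-6646176 had log2 folds of 1.98 (0.81 to 3.45) and 2.68 (2.14 to 3.27). The value for replicate 1 was that of a cluster 4 nt wide, on 111 IP and 6 input reads. The widest replicate 1 cluster of this peak, 73 nt, had a lower fold. Its interval (0.697 to 1.97) was apart from that of replicate 2, while those of the remaining replicate 1 clusters of the peak were not. In PKM, chr15:72499468-72499619 had 1.74 (0.98 to 2.60) and 2.79 (2.02 to 3.65). ALDOA had its best peak at chr16:30078560-30078687, with 1.38 (0.67 to 2.19) and 1.74 (1.20 to 2.31), and it was the only one of these 6 that lay over control clusters, 1 of them enriched. The lower fold of the 2 replicates reached from 0.94 to 2.52 over the 20 peaks, from ENO1 to LDHB. The peak at 0.94, at chr1:8927190-8927309 in ENO1, lay over 2 enriched control clusters, and its folds of 0.94 (0.44 to 1.48) in replicate 1 and 3.14 (2.70 to 3.61) in replicate 2 were apart.

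If the control lacked FLAG-Angel1, as in the paper's description but not in the genotype label, its IP showed which of these places gave reads without it. This held only as far as the depth of the control allowed. All 25 control clusters over the loci rested on 3 to 10 IP reads. The enriched control cluster with the largest fold was, in TPI1, at positions 1909 to 1960, with a log2 fold of 3.95 (1.05 to 6.85) on 3 IP and 3 input reads. In ALDOA it was at 14384 to 14482 with 2.69 (0.83 to 4.30), in PKM at 22033 to 22082 with 2.54 (-0.01 to 4.6) and in ENO1 at 11842 to 11891 with 2.42 (1.22 to 3.49). GAPDH had no enriched control cluster.

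Of the 25 control clusters, 24 overlapped a cluster of replicate 1 and 23 a cluster of replicate 2. The control had the higher log2 fold in 21 of the 24 comparisons with replicate 1, with no pair of intervals apart at the lowest reads that fit. It had the lower fold in 19 of the 23 comparisons with replicate 2, with 2 pairs apart. Those were in ENO1 at 474 to 514, where the control had 0.17 (-1.75 to 1.61) and replicate 2 had 2.37 (1.94 to 2.82), and in GAPDH at 416 to 444, with 0.49 (-1.86 to 2.17) and 2.88 (2.27 to 3.55). By IP RPM, at the lowest reads that fit, replicate 1 was above the control in 18 of 24 and replicate 2 in 21 of 23. The direction of the difference from the control thus depended on the replicate for the fold over input and less so for the IP reads, and with 1 control library no error between control libraries is known.

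The boundaries of the clusters were also compared between the replicates. After abutting clusters were joined, 68 pairs of overlapping blocks were found over the loci, and 37 of them (54.4%) had an upstream or downstream edge at the same nucleotide, beside 15.6% of 49490 pairs in the whole lists. An edge lay within 2 nt in 55 pairs (80.9%, beside 34.9%). Where both blocks had been built of several clusters, which marks deeper places, the share with an edge in common was 66.7% of 24 pairs over the loci and 39.96% of 2207 such pairs in all. The common edge was most frequent in PKM (9 of 11 pairs) and ENO1 (9 of 12) and least so in TPI1 (2 of 9) and LDHA (0 of 2, both within 2 nt). The blocks of replicate 1 covered 6033 nt and those of replicate 2 covered 6993 nt, with 4979 nt in common, and those of either replicate took up 6.75% of the intervals.

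Several of these genes have processed pseudogenes, copies of the spliced mRNA elsewhere in the genome. The RefSeq gene table (GRCh38.p14) lists 65 for GAPDH, 13 for PGAM1, 6 for LDHA, 5 for PKM, 4 each for ENO1 and TPI1, 3 for LDHB and 2 for ALDOA by symbol. How reads that map to several places were treated is not given in the sources used here, so the reads of GAPDH and PGAM1 in particular are uncertain, in the IP and the input alike.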

How the data were processed

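Clusters of the 3 IPs of the 6 eCLIP libraries were analysed. The authors mapped reads to GRCh37 (the submitters' processing notes name cutadapt, STAR, SAMtools and UMI-tools), called clusters in each IP alone and normalized them to the input with an eCLIP pipeline. The deposited log2 values are folds of IP over input, and the deposited −log10 P, at most 400, is 0 where the log2 fold is 0 or below. No label or column gives reads, so library sizes were inferred from the exact steps of the folds, as 209788 IP and 3249250 input reads in the control, 3396701 and 722085 in replicate 1, and 2543630 and 2812210 in replicate 2. With Fisher's exact test where an observed or expected cell was below 5 and a Yates-corrected chi-square otherwise, the P then gave a unique pair of read numbers for 99.4, 99.9 and 99.9% of clusters with a log2 fold above 0 and a scored P. The inference of sizes took the most frequent fold of each list as 3 IP reads over 1 input read. Simulated clusters, 9000 in number, were built with many such folds, and their P came from these same tests. Given the true library sizes, all 6580 unique solutions were correct. All 400 overlaps planted in separate lists were found. The simulation checked the code and could not check the inferred sizes of the real libraries. A minimum of 1 input read set by the pipeline could not be told from 1 read, and how UMI-tools was applied is not given in the sources used here.

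Clusters were assigned to genes by 1 nt of overlap on the same strand. The members and lists were chosen with earlier results of these data known. All 8 genes were named, and of their clusters the reproducible peak with the largest lower fold and the enriched control cluster with the largest fold of each gene; the pairs of opposite sign and the LDHA, PGAM1 and other clusters given by position were chosen after their values were seen. The 95% intervals of folds are exact conditional intervals, at the lowest reads that fit where these were not unique, and those of shares are Wilson intervals. Alternatives covered thresholds, overlap, strand, abutting clusters, widths, genes and each replicate alone. Other glycolytic genes, annotation classes and protein sequences were not analysed here, and no sequence is printed. Python 3.11.15, numpy 2.4.6, pandas 2.3.3, scipy 1.17.1, mpmath 1.4.1 and matplotlib 3.10.9 were used.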

Additional observations from a re-analysis of the deposited data

How the results depend on the processing

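Of the recalculated values, 59 kept to their direction and range and 17 moved. The 59 include settings that counted both strands or ignored the strand. These could not move a value, because no cluster lay on the opposite strand. They also include the value for reproducible peaks without replicate 2, which is not a count of reproducible peaks. At a threshold of 0.001 on P, the control had 3 enriched clusters over the 8 loci (12.0%), replicate 1 had 30 (24.2%), and the share for replicate 2 was 85.2%. At a log2 fold of at least 1 the share in replicate 1 was 40.3%. At a log2 fold of at least 3, the control had 1 enriched cluster (4.0%), replicate 1 had 0 (0.0%) and replicate 2 had 31 (20.8%), and 0 reproducible peaks were left. The shares of all clusters that passed at these folds are not given here. Over all clusters, the quartiles of the log2 fold were 3.32 to 5.95 in the control, -0.23 to 1.28 in replicate 1 and 1.23 to 2.47 in replicate 2. Joining abutting clusters gave 36 enriched clusters in replicate 1 and 86 in replicate 2, which follows from there being fewer clusters. The reproducible peaks numbered 37 at a threshold of 0.05, and their number in the whole lists at that threshold is not given here. With 1 replicate left out no peak can be reproducible, and the values are the clusters past 0.001 of the replicate kept. These were 30 without replicate 2 and 127 without replicate 1. The medians of the log2 fold and the differences between replicates stayed within the spread under all alternatives run, among them pairs with at least 10 input reads in replicate 1. That choice, and counting folds of 0 or below in the classes of input reads, were made after seeing the data. No paired analysis was possible because the values come from no test between libraries and each input enters only through its own IP. Depth limits the control most, where 3 input reads required 2 IP reads to pass and 3 reads were 14.3 RPM. With 10 input reads, replicate 1 required 94 IP reads and replicate 2 required 21. As log2 folds these were 0.999 and 1.22, so the fold required was the lower in replicate 1.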
